A study of Mus musculus with 3 samples.

Results

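The complement components and regulators described here are 9 mouse genes, C2, C3, C4b, Cfb, Cfd, Cfi, Serping1, Cd55 and Cd59a. They were followed through every probe set annotated to them on arrays of 3 cultured ocular pigment epithelia. Of the 9 genes, 7 had a probe set in the annotation used, with 13 probe sets among the 45101 on the array, which names 18193 genes, and C3 and Cfd are not analysed here. The only probe set for C4b is annotated to its near-identical neighbour C4a as well, so it is called the C4a/C4b probe set and its signal cannot be assigned to either gene. All cultures came from adult C57BL/6 mice of 6 to 8 weeks and none was treated. Retinal pigment epithelium (RPE) was released from the posterior eyecup with trypsin and grown in DMEM with 20% serum. Ciliary body pigment epithelium (CBPE) and iris pigment epithelium (IPE) were released with Dispase and DNase and grown in RPMI 1640 with 10% serum. By the labels, over 95% of RPE and CBPE cells at 14 days and over 99% of IPE cells stained for cytokeratin. The medium of all 3 was serum-free overnight before RNA was taken. The study's title asks how thrombospondin-1 acts in the T cell response to these cells, and each culture was hybridised to 1 array.

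Complement is a cascade of plasma and tissue proteins that marks cells and debris for removal. In the classical pathway C1q, C1r and C1s act on C4 and C2, and in the lectin pathway mannose-binding lectins, collectins and MASP proteases do the same. The alternative pathway uses factor B and factor D, and all routes meet at C3. Host cells are shielded by the secreted C1 inhibitor and factor I and by membrane proteins such as CD55, which takes convertases apart, and CD59, which blocks the membrane attack complex. In the eye, complement activity at the RPE is known from age-related macular degeneration.

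With 1 array a culture, there was no replicate error and no test between cultures, so each signal given is 1 measurement. Values are linear signal intensities, and every array had a 2% trimmed mean of 100.001. A floor was set at the median of each array's non-control probe sets, at 16.8 in RPE, 17.3 in CBPE and 14.5 in IPE, and a gene counted as different at 2-fold or more with at least 1 of the 2 signals above its floor. A fold against a dim signal is written as "at least", over the floor or, in CBPE, over the 20.2 reached by controls for bacterial transcripts that were not in the sample. The only measured error is the disagreement between probe sets of a gene, with an SD of the log2 difference of 0.29 for RPE over CBPE (1694 genes), 0.46 for RPE over IPE (1774 genes) and 0.50 for CBPE over IPE (1667 genes). The Actb control probe sets had a 3′ to 5′ ratio of 2.255 in RPE, 2.259 in CBPE and 1.503 in IPE, and its part in the differences from IPE was not tested. The 5′ control for 18S ribosomal RNA gave 27.7 in RPE, 274.3 in CBPE and 17.6 in IPE, and its part in signals that were high in CBPE was not tested. Tissue, enzyme and medium cannot be told apart in the comparisons with RPE. No number of culture days was recorded for IPE, and the part of culture time in the comparisons with IPE was not tested. Of the markers of the labelled cell types, the pigment gene Tyr gave 493.3 in RPE, 384.4 in CBPE and 1114 in IPE, and the keratin gene Krt18 gave 218.6 in RPE, 422.4 in CBPE and 144.1 in IPE. The list of keratin and junction genes went both ways. In RPE over IPE, 1 of 9 was higher and 2 lower by 2-fold or more (33.3% against 20.3% of all genes). In CBPE over IPE, 3 of 8 were higher and 2 lower (62.5% against 24.3%). The pigment gene Dct was under the floor in CBPE, and Rpe65, which defines mature RPE, was under it on every array.

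C4 and C2, whose products join to form the classical and lectin C3 convertase, were both far lower in RPE and CBPE than in IPE. The C4a/C4b probe set gave a signal of 236.5 in RPE, 350.9 in CBPE and 2054 in IPE. IPE was thus the one high array, with RPE 8.68-fold and CBPE 5.85-fold lower. RPE and CBPE differed by 1.48-fold, a log2 difference of -0.57 against the probe set SD of 0.29.

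The 3 probe sets of C2 showed the same order of IPE against the others. The one that represents the gene gave 186.5 in RPE, 172.1 in CBPE and 801.5 in IPE. A further one gave 128.4 in RPE, 173.4 in CBPE and 865.3 in IPE. The last gave 120.3 in RPE, 154.8 in CBPE and 543.6 in IPE. C2 was 4.30-fold lower in RPE and 4.66-fold lower in CBPE than in IPE by the representing probe set, and across all 3 the folds ran up to 6.74 for RPE over IPE and down to 3.51 for CBPE over IPE. Between RPE and CBPE the probe sets differed in sign, with log2 differences of 0.12, -0.43 and -0.36, so the order of these 2 cultures was not settled. In cultured cells measured in bulk, fewer cells that make a transcript and less transcript per cell cannot be told apart.

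Serping1 encodes the C1 inhibitor, a serpin that inactivates C1r, C1s and the MASP proteases. Its signal was 1716 in RPE, 3097 in CBPE and 4722 in IPE, all far above the floors. The cultures stood in the same order as for C4, with RPE 2.75-fold lower than IPE and 1.81-fold lower than CBPE. CBPE was 1.52-fold lower than IPE, a log2 difference of -0.61 beside the probe set SD of 0.50. After quantile normalization that difference was -1.56 and the one for RPE over IPE -2.22, so the size, though not the direction, depended on the scaling.

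Pigment cell markers, like C4 and C2, were lower in RPE and CBPE than in IPE. In RPE over IPE, 7 of 7 measured were lower by 2-fold or more, and in CBPE over IPE 7 of 8 were lower and 0 higher. These shares of 100% and 87.5% compare with 20.3% and 24.3% of all genes past 2-fold in either direction. In RPE over CBPE, 3 of 7 were higher and 0 lower (42.9% against 8.01% of all genes), with a median log2 difference of 0.69. In that comparison C4a/C4b was at -0.57 and Serping1 at -0.85, while the 3 probe sets of C2 differed in sign, at 0.12, -0.43 and -0.36. The summed signal of the pigment markers over 9 genes was 1567 in RPE, 602.3 in CBPE and 4806 in IPE, with Gpr143 under the floor on every array. Glial markers summed to 914.9 in RPE, 443.4 in CBPE and 2784 in IPE over 8 genes. By 2-fold or more, 2 of 6 were lower in RPE over IPE (33.3% against 20.3% of all genes). In CBPE over IPE 2 of 8 were lower and 1 higher (37.5% against 24.3%). Most of that sum was Glul, and Gfap, which defines astrocytes, was at 17.1 in IPE and under the floor in RPE and CBPE. Markers of RPE itself had 3 of 5 lower and 0 higher in RPE over IPE (60% against 20.3% of all genes). In CBPE over IPE they had 2 of 7 lower and 1 higher (42.9% against 24.3%). Of the 7 RPE markers above a floor, 4 were highest in IPE and 3 in CBPE. Otx2, a transcription factor gene of this list, gave 54.4 in RPE, 61.9 in CBPE and 329.6 in IPE. Rdh5, its brightest gene, gave 84.3 in RPE, 143.9 in CBPE and 124.3 in IPE. The part of all these cells in the complement signals was not tested.

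**Figure D1:**
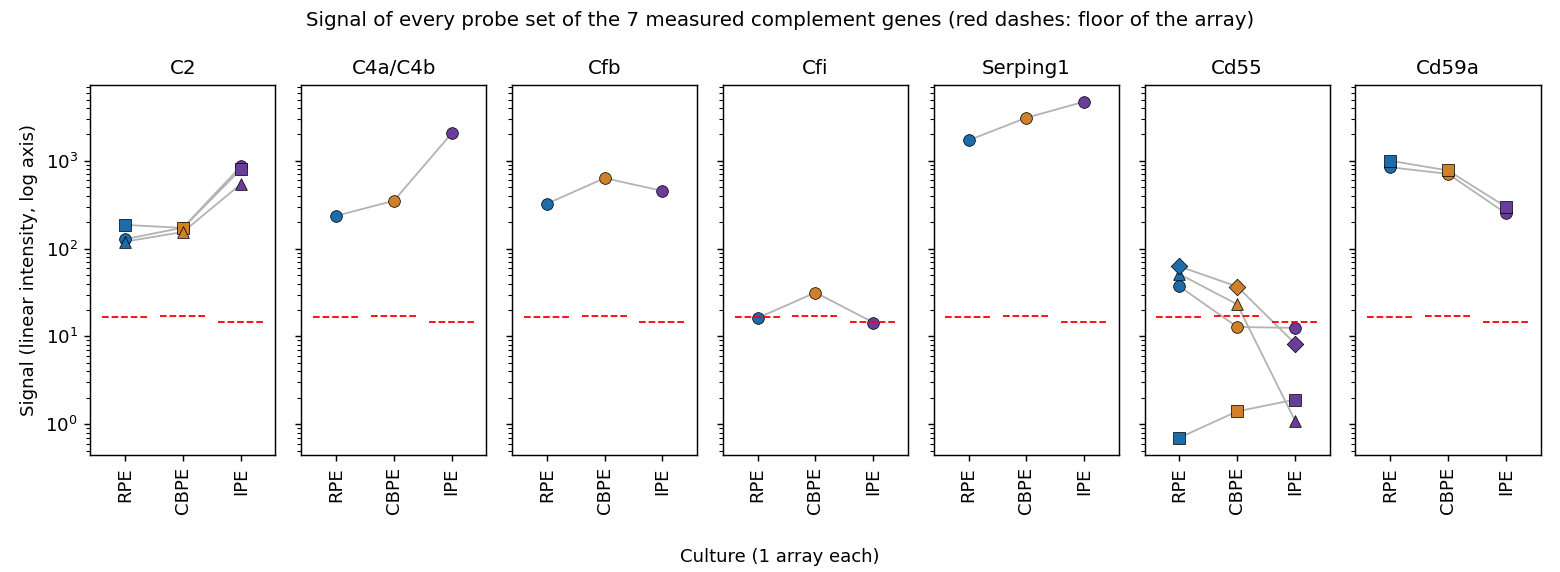
Signal intensity (log axis) of each probe set of the 7 measured genes on the RPE, CBPE and IPE arrays, with the probe sets of a gene as separate symbols joined by grey lines and the floor of each array as a red dash. C2, C4a/C4b and Serping1 are highest in IPE, Cd55 and Cd59a are highest in RPE, and points under the floor have no order.

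The alternative pathway gene Cfb had another order. Factor B is the protease of the alternative C3 convertase and a homologue of C2. Its signal was 324.7 in RPE, 636.3 in CBPE and 454.9 in IPE. RPE stood 1.96-fold below CBPE, just under the 2-fold limit and with a log2 difference of -0.97 against the probe set SD of 0.29. RPE over IPE, at -0.49, and CBPE over IPE, at 0.48, were about as large as the probe set SDs of 0.46 and 0.50, so IPE could not be ordered against either culture beyond that spread. Cfb had 1 probe set, and no other could check it.

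Cfi encodes factor I, the protease that cleaves C3b and C4b once a cofactor has bound them. Its probe set gave 16.2 in RPE, 31.6 in CBPE and 14.4 in IPE. Only the CBPE signal was above its floor, at least 1.88-fold over RPE and at least 2.18-fold over IPE. For RPE over CBPE the log2 difference was -0.21 with the floor at the 60th percentile. CBPE over IPE fell below 2-fold with equal medians, without a floor and with the floor at the 60th percentile, at log2 differences of 0.87, 0.65 and 0.10. RPE and IPE have no order.

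The membrane regulators Cd59a and Cd55 differed from IPE in the opposite direction to C4 and C2. By their representing probe sets, signals were higher in RPE and CBPE. Cd59a encodes a GPI-anchored inhibitor of the membrane attack complex. One of its probe sets gave 1005 in RPE, 777.6 in CBPE and 299.7 in IPE, and the other 845.6 in RPE, 711.4 in CBPE and 253.2 in IPE. The probe sets nearly coincided in ratio: RPE was 3.35-fold higher than IPE by the first and 3.34-fold by the second, and CBPE 2.59-fold and 2.81-fold higher. RPE over CBPE was 1.29-fold and 1.19-fold, with log2 differences of 0.37 and 0.25 beside the probe set SD of 0.29, so these 2 cultures were not separated beyond it.

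Cd55 encodes decay-accelerating factor, a GPI-anchored protein that dissociates C3 and C5 convertases and that also restrains T cell responses in mice. All of its signals were low. The representing probe set gave 62.7 in RPE, 37 in CBPE and 8.3 in IPE, a further one 51.3 in RPE, 23.2 in CBPE and 1.1 in IPE, and the last 37.2 in RPE, 12.8 in CBPE and 12.5 in IPE. RPE was highest by all 3, and IPE was under its floor by all 3. By the representing probe set RPE was at least 4.32-fold higher than IPE. That log2 difference of 2.11 was 1.09 with the floor at the 60th percentile. RPE was 1.69-fold higher than CBPE by the same probe set. The other probe sets put RPE over CBPE at log2 differences of 1.14 and 1.10, the second against a CBPE signal under its floor. By the representing probe set CBPE was at least 2.55-fold higher than IPE. That log2 difference of 1.35 was 0.33 with the floor at the 60th percentile and 0.76 as the mean of the probe sets. The further probe set put CBPE over IPE at 0.68, and by the last both signals were under their floors. A 4th probe set, shared with the paralogue Cd55b, was under the floor on every array, as was the probe set of Cd55b itself.

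The promoter windows of Cd55 and Cd59a are shown because they were the only measured members with an entry in the table of windows. They are the 250 bases before the gene start that RefSeq gives on build GRCm38.p6, on the minus strand at chr1:130462745-130462994 for Cd55 and on the plus strand at chr2:104095551-104095800 for Cd59a. Capitals mark matches on either strand to the motifs listed after the sequences.
Cd55: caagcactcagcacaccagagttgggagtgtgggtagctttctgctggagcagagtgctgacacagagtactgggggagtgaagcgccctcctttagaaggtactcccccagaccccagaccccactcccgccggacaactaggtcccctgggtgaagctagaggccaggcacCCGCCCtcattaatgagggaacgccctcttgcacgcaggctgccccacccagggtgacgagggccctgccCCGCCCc
Cd59a: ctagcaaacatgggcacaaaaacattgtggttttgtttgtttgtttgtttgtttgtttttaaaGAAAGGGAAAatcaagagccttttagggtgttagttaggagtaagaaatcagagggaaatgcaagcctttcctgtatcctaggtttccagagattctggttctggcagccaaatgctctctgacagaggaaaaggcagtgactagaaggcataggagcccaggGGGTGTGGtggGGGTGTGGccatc
The Cd55 window was 64% G and C with 8 CpG pairs, and the Cd59a window 44.8% with 0, against medians of 52.4% and 6 over 32851 windows of the same length. Cd55 held 2 matches to the GC box GGGCGG, found in 32.7% of all windows. Cd59a held 2 matches to the CACCC box CCACACCC (3.2% of windows) and 1 to the interferon-stimulated response element, GAAA, any 2 bases and GAAA (2.98%). Neither held the TATA box TATAAA (12.4%), CCAAT (33.8%), the STAT site TTCNNNGAA (7.02%), the AP-1 site TGANTCA (6.75%) or the NF-κB site, GGGA, any 2 bases and TTCC (1.21%). The matched motifs did not overlap, and the 2 genes shared none of the motifs searched in these windows.

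Of the 15 fibroblast and mesenchymal markers, 12 also had their lowest signals in IPE. By 2-fold or more, RPE over IPE had 6 of 15 higher and 2 lower (53.3% against 20.3% of all genes). CBPE over IPE had 8 of 15 markers higher and 2 lower (66.7% against 24.3%). Their summed signal was 54594 in RPE, 69198 in CBPE and 35641 in IPE, with CBPE highest for 10 of the 15 genes, and every one was above the floor on at least 1 array. The part of these cells in the Cd55 and Cd59a signals was not tested.

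Set against all genes, the measured members differed often from IPE and in both directions. In RPE over IPE, 2 of 6 were at least 2-fold higher (Cd55 and Cd59a) and 3 lower (C2, C4a/C4b and Serping1), where 9.86% of all 12446 genes measured were higher and 10.5% lower. In CBPE over IPE, 3 of 7 were higher (Cfi, Cd55 and Cd59a) and 2 lower (C2 and C4a/C4b), where 11.7% of 12831 genes were higher and 12.5% lower. In RPE over CBPE, 0 of 7 reached 2-fold, where 3.75% of 12860 genes were higher and 4.26% lower, 8.01% in all. At a 3-fold limit the members' counts were 0 in RPE over CBPE, 4 in RPE over IPE and 2 in CBPE over IPE, beside 1.87%, 6.59% and 9.06% of all genes. With equal medians the split of all genes was 6.28% higher and 15.4% lower in RPE over IPE and 7.36% higher and 18.5% lower in CBPE over IPE. The median log2 difference of the measured members was -0.57 in RPE over CBPE, -0.97 in RPE over IPE and 0.48 in CBPE over IPE, beside -0.0020, 0.017 and 0.039 over all genes. Both comparisons with IPE share its 1 array. Cd55 and Cfi entered the counts only through the arrays where they were above the floor, while the other 5 were above it on all 3.

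**Figure D2:**
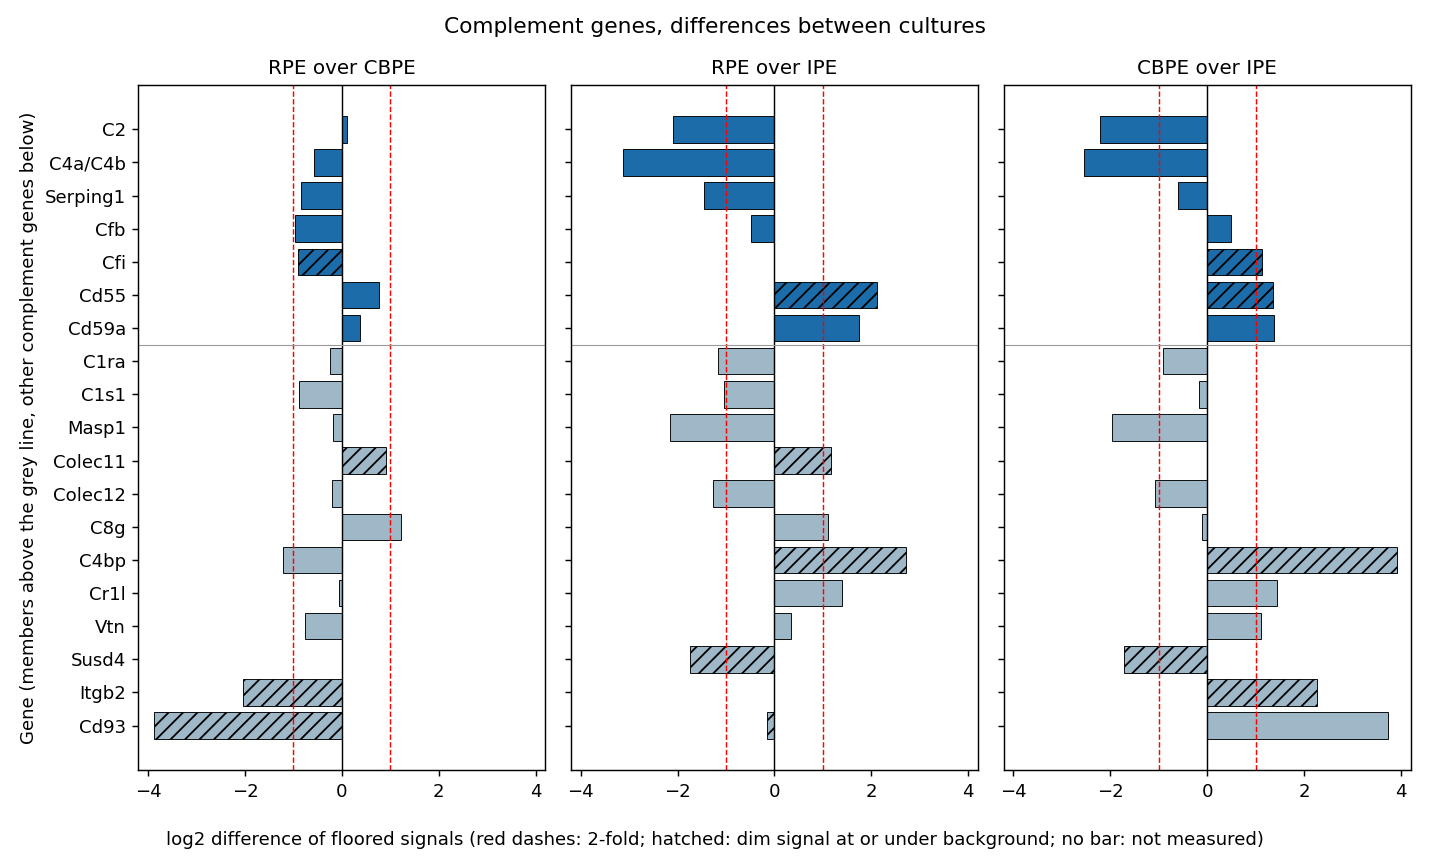
Log2 differences of floored signals for the 7 measured members (dark bars, upper block) and the 12 other complement genes that differed at least 2-fold in a comparison (light bars, lower block), with RPE over CBPE, RPE over IPE and CBPE over IPE as panels. C2 at -2.10 and C4a/C4b at -3.12 point to IPE in the middle panel and Cd59a at 1.74 to RPE, and hatched bars rest on a dim signal at or under background.

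The rest of the complement system was followed through 50 further genes, of which 41 had a probe set and 20 passed the floor of 1 array or more. In RPE over IPE, 4 of 16 measured were higher by 2-fold or more and 5 lower, a share of 56.2% against 20.3% of all genes. In CBPE over IPE, 5 of 18 were higher and 3 lower, 44.4% against 24.3%. In RPE over CBPE, 1 of 18 was higher and 3 lower, 22.2% against 8.01%. The medians were -0.0079, 0.39 and -0.40 in that order of comparisons.

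Masp1, C1ra and C1s1, protease genes of the classical and lectin pathways, had their highest signals in IPE. A further one, Masp2, was above the floor only in CBPE, at 18.6, under the 20.2 that controls for absent transcripts reached there. Masp1, the lectin pathway protease gene, gave 232.2 in RPE, 263.6 in CBPE and 1030 in IPE, 4.43-fold lower in RPE and 3.91-fold lower in CBPE than in IPE. The 2 other Masp1 probe sets above the floor on all arrays were also highest in IPE, with 193.2 in RPE, 215.8 in CBPE and 986.3 in IPE by one and 69.7 in RPE, 38.4 in CBPE and 206.3 in IPE by the other, and they differed in the order of RPE and CBPE.
C1ra, which encodes C1r, gave 744.4 in RPE, 885.7 in CBPE and 1677 in IPE. RPE stood 2.25-fold below IPE, and CBPE, 1.89-fold below, was inside the 2-fold limit. C1s1, which encodes C1s, gave 1502 in RPE, 2766 in CBPE and 3093 in IPE, 2.06-fold lower in RPE than in IPE and within 2-fold otherwise. Colec12, a membrane collectin, gave 130.7 in RPE, 149.5 in CBPE and 313 in IPE, 2.39-fold and 2.09-fold lower than IPE. Of the recognition molecules, C1qa, C1qc, Mbl2, Fcna, Fcnb and Colec10 were under the floor on every array. Colec11 was above it only in RPE, at 32.6, by 1 of its 2 probe sets, at least 2.25-fold over IPE.

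Regulators split between the cultures. Cr1l encodes Crry, the rodent membrane cofactor that limits C3 and C4 deposition, and it gave 619 in RPE, 643.7 in CBPE and 236.4 in IPE. Like Cd59a, it was lowest in IPE, by 2.62-fold against RPE and 2.72-fold against CBPE. The other probe sets of Cr1l were not above the floor on any array, so they could not check this order. C4bp, the soluble C4b-binding protein and a cofactor of factor I, gave 94.6 in RPE, 220.5 in CBPE and 3 in IPE, under the floor. RPE stood at least 6.52-fold and CBPE at least 15.2-fold over IPE, and RPE was 2.33-fold below CBPE. Susd4, a complement regulator with sushi domains, was above the floor only in IPE, at 56.6, at least 3.37-fold over RPE and at least 2.80-fold over CBPE. Its other probe set gave 17 in IPE and was under the floor in RPE and CBPE. Vtn, vitronectin, gave 19.7 in RPE, 33.5 in CBPE and 15.6 in IPE, with CBPE 2.15-fold over IPE at signals near the floor. Clu, clusterin, an inhibitor of the terminal complex, gave 4974 in RPE, 7277 in CBPE and 5415 in IPE, within 2-fold throughout.

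Of the terminal and central components, Hc (C5), C6, C8a, C8b and C9 were under the floor on every array. C8g, a lipocalin that joins C8, gave 67.5 in RPE, 28.9 in CBPE and 31.2 in IPE, 2.34-fold and 2.16-fold higher in RPE. Properdin, Cfp, which steadies the alternative convertase, gave 26.6 in RPE, 48.8 in CBPE and 34 in IPE, within 2-fold. Liver is the main source of plasma complement, and hepatocyte markers were weak here too. Alb gave 7.5 in RPE, 19 in CBPE and 4.8 in IPE, and 5 of 9 with a probe set were under the floor on every array. The acute phase gene Hp stood out among them, at 317.3 in RPE, 705.7 in CBPE and 68.5 in IPE.

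C4b, Cfb and C2 lie together on chromosome 17, in the class III region of the major histocompatibility complex, and their neighbours were read beside them. In the RefSeq table of GRCm38.p6 the protein-coding order is Tnxb, C4b, Cyp21a1, Stk19, Dxo, Skiv2l, Nelfe, Cfb, C2, Zbtb12, Ehmt2 and Slc44a4. C4a is a transcribed pseudogene in that table, so it is not in this order, and it has no probe set of its own here. These neighbours were chosen after the values of C2 and Cfb were seen. Of the 8 other genes above a floor, 0 were lower by 2-fold or more in RPE over IPE or in CBPE over IPE, while 2 were higher in RPE over IPE and 1 in CBPE over IPE. Of all genes measured, 10.5% were lower and 9.86% higher in RPE over IPE, and 12.5% lower and 11.7% higher in CBPE over IPE. Counts from 8 genes cannot be told apart from these shares. Cfb and C2 are next to each other in that order, with log2 differences of -0.49 and -2.10 for RPE over IPE and 0.48 and -2.22 for CBPE over IPE. Nelfe, on the other side of Cfb, gave 279 in RPE, 307.1 in CBPE and 167.2 in IPE. Stk19 gave 83.2 in RPE, 84.3 in CBPE and 87.2 in IPE. The high IPE signals of C4 and C2 were not seen in the other protein-coding genes measured between them. The part of chromosomal position in these signals was not tested.

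**Figure D3:**
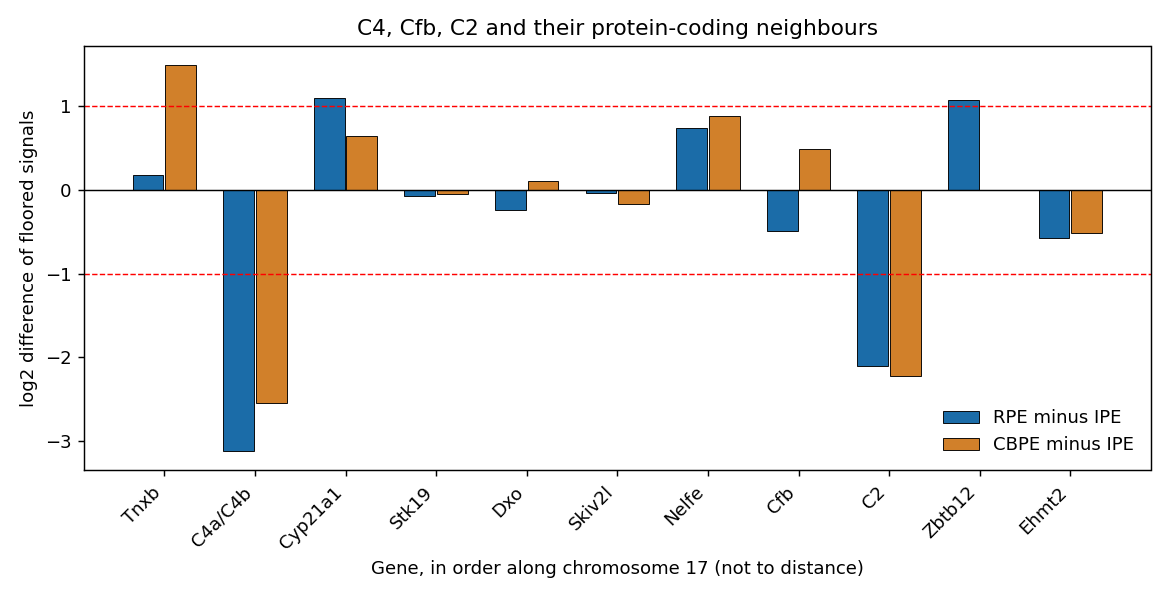
Log2 differences of RPE minus IPE (left bar of each pair) and CBPE minus IPE (right bar) for C4a/C4b, Cfb, C2 and neighbouring protein-coding genes above the floor, in their order along chromosome 17, with red dashes at 2-fold. C4a/C4b at -3.12 and -2.55 and C2 at -2.10 and -2.22 are the only ones beyond the lower dash, and a missing bar means that neither signal was above its floor.

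Complement receptors were found almost only in CBPE, together with markers of leukocytes and endothelium. Cd93, a C1q receptor family gene of endothelial and myeloid cells, gave 2.6 in RPE, 248.1 in CBPE and 18.7 in IPE, with CBPE at least 14.8-fold over RPE and 13.3-fold over IPE. Itgb2, the β chain of complement receptors 3 and 4, gave 11.4 in RPE, 69.6 in CBPE and 3.6 in IPE. CBPE was at least 4.14-fold over RPE and at least 4.80-fold over IPE. The anaphylatoxin receptor gene C3ar1 was above the floor only in CBPE, at 24.6, and C5ar1, Cr2, Itgam and Vsig4 were above it nowhere. By its representing probe set C1qb gave 22.3 in RPE, 36 in CBPE and 19 in IPE, differences within 2-fold. Its other probe sets were above the floor only in CBPE, and near it. They gave 24.2 in CBPE against 0.7 in RPE and 5.8 in IPE, and 20.4 in CBPE against 10.9 in RPE and 1.8 in IPE.

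The macrophage and leukocyte markers measured the same way stood higher in CBPE. By 2-fold or more, RPE over CBPE had 11 of 14 lower and 0 higher (78.6% against 8.01% of all genes). CBPE over IPE had 11 of 14 markers higher and 0 lower (78.6% against 24.3%). Their summed signal over 15 genes was 613.8 in RPE, 2810 in CBPE and 404.5 in IPE, and Ptprc, the pan-leukocyte gene, was under the floor on every array. Endothelial markers summed to 629.7 in RPE, 2027 in CBPE and 1292 in IPE over 12 genes. By 2-fold or more, 6 of 10 were lower in RPE over CBPE (60% against 8.01% of all genes). In CBPE over IPE 6 of 11 were higher (54.5% against 24.3%), with Vwf under the floor throughout. The part of these cells in the receptor signals, and in the Cfb and Cfi signals of CBPE, was not tested.

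**Figure D4:**
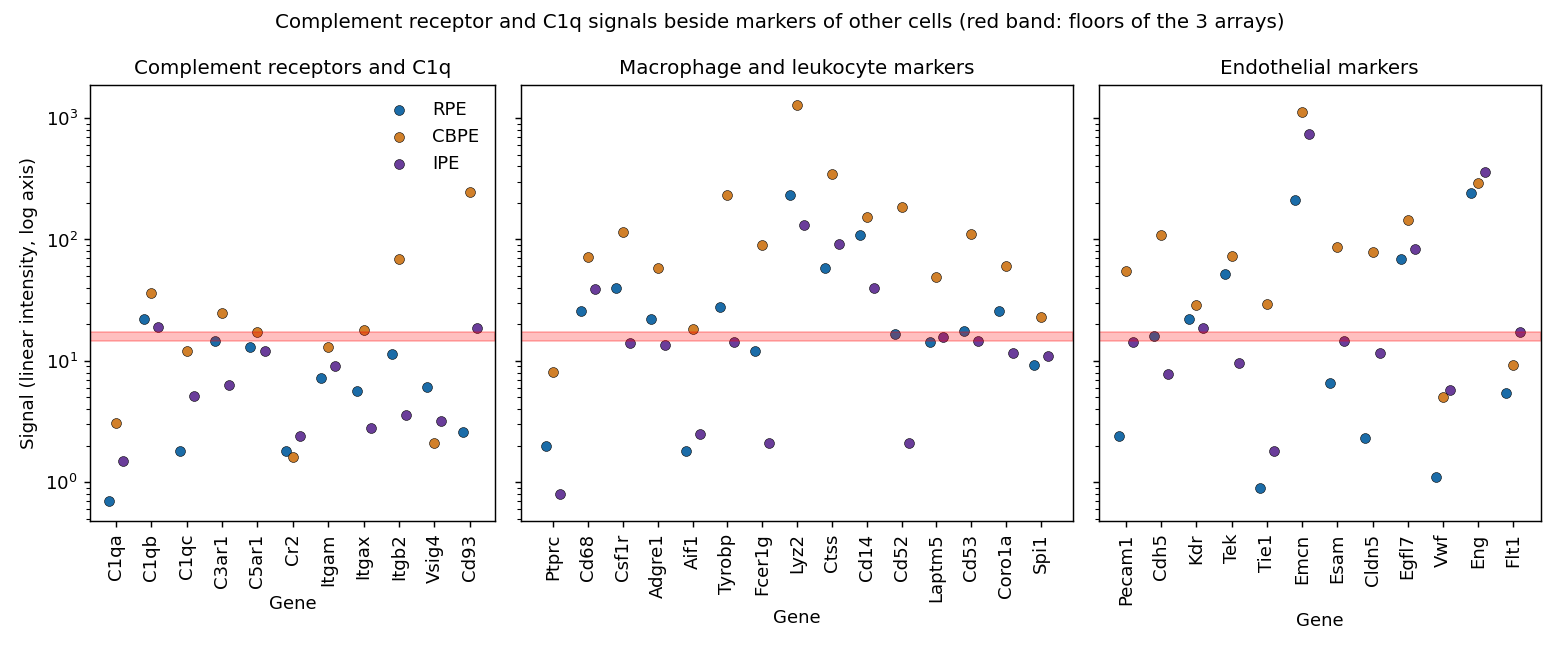
Signal intensity (log axis) of the C1q chains and complement receptors (left), macrophage and leukocyte markers (middle) and endothelial markers (right) on the RPE, CBPE and IPE arrays, with the floors of the 3 arrays as a red band. Itgb2 at 69.6 and Cd93 at 248.1 are above the band in CBPE, as are 14 of the 15 leukocyte markers. Of these markers, Aif1 at 18.4 is under the 20.2 that controls for absent transcripts reached in CBPE.

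Cytokines such as interferon-γ, interleukin-6 and tumour necrosis factor are known to induce C2, C4, Cfb and Serping1, so genes of these responses were read beside them. The NF-κB and acute phase list had 5 of 18 measured genes higher by 2-fold or more and 2 lower in CBPE over IPE (median log2 difference 0.55). RPE over IPE had 3 of 17 higher and 2 lower (median 0.33), and RPE over CBPE had 1 of 18 lower and 0 higher. Shares past 2-fold were 38.9%, 29.4% and 5.56% in that order of comparisons, beside 24.3%, 20.3% and 8.01% of all genes. Saa3, an acute phase gene, gave 7522 in RPE, 9737 in CBPE and 4550 in IPE, and Ccl2 3175 in RPE, 3851 in CBPE and 1249 in IPE, both highest in CBPE. Il6 gave 111.4 in RPE, 221 in CBPE and 500 in IPE and Socs3, a STAT3 target, 261.9 in RPE, 367 in CBPE and 1147 in IPE, the order of C4 and Serping1. Il6 and Socs3 were picked after their values were seen. Of the 18 genes of their list above a floor, 6 were highest in IPE and 9 were lowest there.
The interferon response list, by the same limit, had 3 of 17 genes higher and 2 lower in RPE over IPE (median 0.050) and 3 of 17 higher and 1 lower in CBPE over IPE (median 0.42). The brightest, Ifit3, gave 1228 in RPE, 1214 in CBPE and 878.6 in IPE. Shares of 29.4% and 23.5% past 2-fold compare with 20.3% and 24.3% of all genes. The part of the NF-κB, acute phase and interferon responses in the complement signals was not tested.

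Likeness over only 3 arrays leaves many genes close to most members. Each gene's log2 signals were centred on its mean over the 3 arrays, and likeness was the Euclidean distance between genes. Among 9952 named genes above the floor on all 3 arrays, 22 lay within 0.5 of the C4a/C4b probe set and 139 of C2. The numbers were 448 for Cd59a, 583 for Serping1 and 1071 for Cfb. The nearest to C4a/C4b were Gem and Fbln7, at distances of 0.17 and 0.18, and the nearest to C2 were Iigp1, an interferon-inducible GTPase gene, and Chd1, at 0.023 and 0.049. Tgfb1, at 147 in RPE, 282.7 in CBPE and 201 in IPE, was with Kremen1 among the 2 nearest to Cfb, at 0.026 and 0.017. Parm1 and Lemd3 were nearest to Serping1, and Nucb2 and Calhm2 to Cd59a.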

How the data were processed

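RNA of 3 cultures was measured on 1 array each, from 1 µg of total RNA labelled with biotin by Affymetrix reagents, per the labels' protocols. The deposited table holds linear intensity values by the authors, 1 per probe set and array, and the software behind it is not given in the sources used here. Probe sets were named from a 2016 platform annotation, with symbols brought up to date by gene identifier from the RefSeq table of GRCm38.p6: 34958 had 1 gene, 932 several and 9160 were not listed. Besides C4a/C4b, probe sets of several genes named no gene. Where a gene had several probe sets, the brightest by mean log2 signal represented it. The floor, the 2-fold limit and the probe set SD (signals above 100 on both arrays) are defined with the results. The arrays' number limits the precision of every value, and no test, p-value or replicate error exists.

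The members and all gene lists were chosen with earlier results of these data known. Named were all members, every other complement gene at least 2-fold different, the 4 brightest of the rest, up to 3 bright genes of other lists with the markers that define a cell type, and the 2 genes nearest to each member. Promoter windows existed for 2 of the 7 measured members. Only the 2-fold limit was tried on simulated data, without a floor and with changes planted in bright genes alone. Its simulated spread was below the probe set SDs of the comparisons with IPE. The simulation therefore says nothing of genes near the floor, such as Cfi and Cd55. Alternatives were quantile normalization, equal medians, log2(signal + 16), floors at the 60th percentile or 100, other probe set rules and a 3-fold limit. Python 3.11.15, numpy 2.4.6, pandas 2.3.3 and matplotlib 3.10.9 were used.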

Additional observations from a re-analysis of the deposited data

How the results depend on the processing

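No paired analysis was possible because each culture had 1 array, and no sample could be left out. Of 67 recomputed values of the 10 member differences of at least 2-fold, all 67 kept their sign and 62 stayed past 2-fold. The 5 that did not were those of Cfi and Cd55 in CBPE over IPE. With the fixed floor of 100, Cfi and Cd55 were not measured at all, and these lost values are not among the 67. For RPE over CBPE, 1 member was past 2-fold after quantile normalization (Cfi, lower in RPE) and 1 as the mean of all probe sets (Cd55, higher in RPE), against 0 as reported. For CBPE over IPE, 3 members were past 2-fold with the floor at the 60th percentile, 3 with the fixed floor of 100 and 2 with the 3-fold limit, against 5. For RPE over IPE the member count was 4 or 5 under all 8 alternatives. Of the other complement genes in RPE over CBPE, 2 were different with the fixed floor of 100 and 2 at 3-fold, against 4. In RPE over IPE, 5 were different with the fixed floor of 100, 5 after dropping probe sets prone to match several transcripts and 3 at 3-fold, against 9. In CBPE over IPE, 5 were different with the fixed floor of 100, 5 as the mean of all probe sets and 5 at 3-fold, against 8. With the fixed floor of 100 fewer genes could be measured, and at 3-fold the limit itself is stricter. Dropping probe sets prone to match several transcripts also left fewer other complement genes to measure, 9 against 16 in RPE over IPE. The cause of the other changes was not tested. Equal medians moved the median log2 difference of all genes to -0.20 in RPE over IPE and -0.22 in CBPE over IPE, and the share of all genes lower against higher to 15.4% against 6.28% and 18.5% against 7.36%. Quantile normalization moved it to 0.13 in CBPE over IPE. Signals near the floor, those of Cd55 and Cfi above all, limit what can be said of these 2 genes.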
